A study of Homo sapiens with 24 samples.

Results

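The expression of 10 genes for secreted inflammatory signals was followed in 4sU-seq libraries of the human osteosarcoma line U2OS: LIF, IL11, IL6, CXCL8, CXCL1, CXCL2, CCL2, CSF1, IL1A and IL1B. They were taken by name from the 61533 genes of a strand-specific exon count table, as cytokines and chemokines that glucocorticoids are known to repress. Of the 10, 7 had enough reads to be tested, and CXCL1, CXCL2 and IL1B were too low to judge. None of the 7 was called lower than in ethanol at 2 or 3 h in any line. The test was the quasi-likelihood test of edgeR, with p-values adjusted by Benjamini-Hochberg. By line, 1.22% to 2.38% of all tested genes were called as falling at 2 h and 4.12% to 8.11% at 3 h. A count of 0 of 7 is near these shares and does not settle whether the label of repression holds. At those times 0 passed an unadjusted p under 0.05 as falling, and DESeq2 called 0 as falling. As rising at 3 h, edgeR called 3 of the 7 in wt, 3 in SoF and 2 in Ctrl, with CSF1 and LIF in each line. Of all tested genes, 6.6%, 11.2% and 8.58% were called as rising there. How far these calls depend on single libraries is given below. At 1 h, edgeR called IL11 as falling in the mean of 3 lines (-1.15, SE 0.21, adjusted p = 0.00356). With no filter on low counts, 1 fall was called, of CXCL8 in Ctrl at 3 h. The genes are therefore referred to by name.

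The 3 stable U2OS lines carried a HaloTag fusion of the glucocorticoid receptor (GR): wild-type GR (wt), the K492A mutant (SoF, a separation-of-function mutant with reduced RNA binding and a lesser loss of DNA binding) and the R470A mutant (Ctrl, with reduced DNA binding and RNA binding kept), so that both mutants bind DNA less tightly than wt. Each line was given 0.01% ethanol (0 h) or dexamethasone, a synthetic hormone that activates GR, at 100 nM during 1, 2 or 3 h. For the last hour all cells received 200 µM 4-thiouridine (4sU), so that the RNA made in that hour could be biotinylated, pulled down and sequenced. There were 2 libraries in each of the 12 groups, 24 in all. The fusions were integrated by PiggyBac transposition under a CMV promoter, selected with puromycin and sorted on the HaloTag dye, and each line is a single sorted pool, so construct and pool cannot be told apart. U2OS cells hold little GR of their own. The protocol names no inflammatory stimulus, the cells stood in charcoal-stripped serum, the medium was replaced at treatment, and the duration of ethanol was not stated, so that no 0 h library is known to match a given time of dexamethasone. Nothing in the labels says that the 2 libraries of a group came from separate cultures, and p-values then measure only the spread between these libraries. The paper states that biotinylation and pulldown were carried out on replicate pairs. If the 2 libraries of a group shared a pulldown, their spread leaves out variation between pulldowns, and group and pulldown cannot be told apart.

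Cytokines are secreted proteins that cells use to signal to their neighbours, and chemokines are the subset that guides the movement of leukocytes. Most of the 10 genes are held near silence until the transcription factors NF-κB and AP-1 are activated, for example by TNF or interleukin 1, and glucocorticoids classically damp them by letting ligand-bound GR hinder those factors. Osteoblast-lineage cells, from which osteosarcoma arises, can secrete several of them, including the macrophage growth factor CSF1 and the chemokine CCL2, which act on the precursors of bone-resorbing osteoclasts.

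The promoter letters of 7 members were matched by symbol in RefSeq (GRCh38.p14), in 8 windows of 250 bases before a start site, and LIF, CCL2 and CSF1 were not matched. The stretch from 160 to 61 bases before the start is printed because it holds the sites at which NF-κB and AP-1 are known to act. The 5 genes below each hold a motif of NF-κB or AP-1 in it. Those 5 run from among the highest to the lowest levels measured. Capitals mark the letters of the NF-κB motif GGANTTTCC and of the AP-1 motif TGANTCA, each searched on both strands, with no overlap between them.
CXCL8 (chr4:73740409-73740508, plus strand): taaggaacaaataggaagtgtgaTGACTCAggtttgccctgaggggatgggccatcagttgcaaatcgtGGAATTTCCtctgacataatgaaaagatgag
CXCL1 (chr4:73869233-73869332, plus strand): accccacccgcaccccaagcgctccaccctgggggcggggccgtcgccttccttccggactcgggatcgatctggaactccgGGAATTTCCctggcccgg
CXCL2 (chr4:74099256-74099355, minus strand): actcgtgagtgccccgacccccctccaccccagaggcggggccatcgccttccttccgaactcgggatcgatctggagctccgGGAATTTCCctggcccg
IL6 (chr7:22727040-22727139, plus strand): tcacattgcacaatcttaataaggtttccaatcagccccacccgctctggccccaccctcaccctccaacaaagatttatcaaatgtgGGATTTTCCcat
IL11 (chr19:55370524-55370623, minus strand): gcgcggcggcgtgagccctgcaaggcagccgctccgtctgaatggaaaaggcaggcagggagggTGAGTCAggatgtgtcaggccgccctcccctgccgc
The NF-κB letters lay with their first base at position -91 from the start in CXCL8, -78 in CXCL1, -77 in CXCL2 and -72 in IL6, and 1.45% of all 35116 promoter windows hold them. The AP-1 letters began at -137 in CXCL8 and at -96 in IL11, and were also found in both IL1A windows, which are not printed. The IL1B window held neither motif. The IL1A windows overlap, and the match at -12 in the first is the match at -105 in the second, which holds another at -55. Of all windows, 6.57% hold the AP-1 letters. The letters ACANNNTGT, the core of the glucocorticoid response element, were in none of the 8 windows and in 4.61% of all windows. A match is a description of the letters and shows no binding.

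All 10 genes are protein coding, and positions are given on hg38 from GENCODE 44. LIF lies on the minus strand of chromosome 22 at 30240453 to 30246759, IL11 on the minus strand of chromosome 19 at 55364382 to 55370463, IL6 on the plus strand of chromosome 7 at 22725884 to 22732002, CCL2 on the plus strand of chromosome 17 at 34255274 to 34257208 and CSF1 on the plus strand of chromosome 1 at 109910242 to 109930992. On chromosome 4, CXCL8 (73740519 to 73743716) and CXCL1 (73869393 to 73871308) stand on the plus strand, with 125677 bases between them, and CXCL2 (74097040 to 74099196) on the minus strand. IL1A (112773925 to 112784493) and IL1B (112829751 to 112836816) are neighbours on the minus strand of chromosome 2, with 45258 bases between them. Exons of LIF overlap those of LIF-AS1 by 86 bases and LIF-AS2 by 83 bases, and exons of IL6 overlap those of IL6-AS1 by 428 bases and STEAP1B by 46 bases, all on the opposite strand. The counting is called stranded only in the name of the deposited table, so these values carry that limit.

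Libraries held 8106036 to 15820806 counted reads. As a check of the treatment, 8 of 9 tested genes known to respond to glucocorticoids rose in the mean of the 3 lines at 3 h, among them FKBP5, a GR co-chaperone, by 3.06 on the log2 scale (SE 0.13, adjusted p = 9.61e-14, edgeR's quasi-likelihood test), while DUSP1 fell by 0.78. Of 7 bone-lineage markers, RUNX2, COL1A1, ALPL and SPARC were present in every library, whereas COL1A2 and POSTN were at or near 0, and their sum ran from 601 to 1407 CPM. CPM here is a gene's reads per 1000000 reads of the tested genes in its library, with that library size scaled by its TMM factor (edgeR's normalization between libraries). The 10 leukocyte and endothelial markers summed to 4.87 to 10.6 CPM, with medians of 0 for CD3E and LYZ, and PTPRC, CD68, ITGAM and VWF had reads in every library. In the mean of 3 lines ITGAM rose by 1.44 at 2 h (SE 0.34, adjusted p = 0.00306) and 1.18 at 3 h (SE 0.34, adjusted p = 0.00896), VWF rose by 0.50 at 2 h (SE 0.18, adjusted p = 0.0393), and PTPRC fell by 0.89 at 3 h (SE 0.32, adjusted p = 0.0327) in edgeR's test. The part of these markers in the results for the 10 genes was not tested.

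The levels of the 10 genes differed widely. Per kilobase of exon, the mean over the 24 libraries was 96.2 CPM for LIF, a cytokine of the interleukin 6 family that signals through LIFR and gp130, and 95.3 CPM for CXCL8 (interleukin 8), the main neutrophil attractant of human cells. CCL2, an attractant of monocytes, followed at 48.4 CPM per kilobase. IL11, another gp130 cytokine with roles in bone and fibrosis, had 6.47, CSF1 4.47, IL1A, an alarmin that acts on the interleukin 1 receptor, 2.36 and IL6 0.756 CPM per kilobase. In this order, the ranges of neighbours over libraries overlapped, except those of CCL2 and IL11. These ranges pool lines and times and do not compare genes within a library. Whether neighbours differ in level was not tested. Among all tested genes, LIF was at the 99.0th and CXCL8 at the 97.9th percentile of mean CPM, against the 35.6th for IL6.

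**Figure D1:**
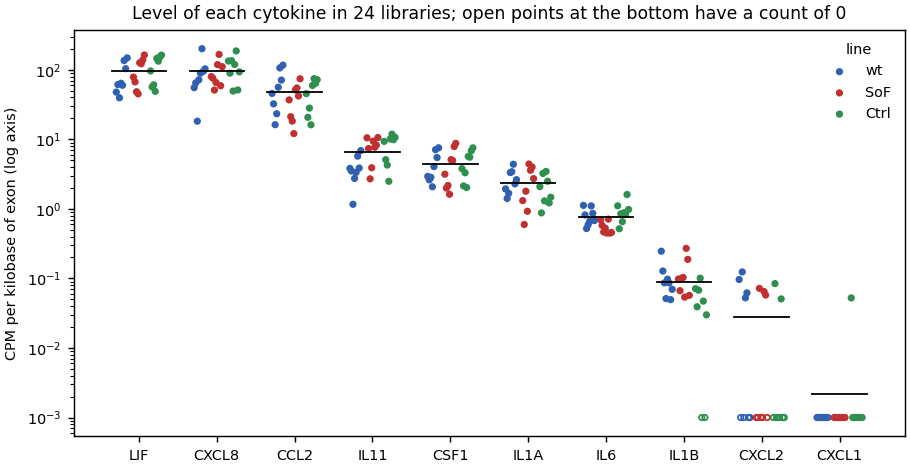
Level of each of the 10 genes in CPM per kilobase of exon on a log axis, with a point per library (colour marks the line) and a black bar at the mean of 24 libraries. LIF and CXCL8 stand highest at 96.2 and 95.3, and open points at the bottom mark libraries with a count of 0, which are found for IL1B, CXCL2 and CXCL1 alone.

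CXCL1 and CXCL2 are close relatives of CXCL8 that also attract neutrophils, and IL1B is the secreted partner of IL1A. CXCL1 had 1 read in all 24 libraries, a Ctrl library, and 23 libraries at 0. CXCL2 had 11 reads, at most 2 in any library, with 15 libraries at 0. Whether CXCL1 and CXCL2, being near-identical in parts, share reads that a counter sets aside was not tested. IL1B had 77 reads, 0 to 11 per library and at most 0.814 CPM, with 2 libraries at 0. A count of 3 corresponded to 0.202 to 0.353 CPM, so that a level below this could not be seen in 1 library. The low-count filter left out these 3 genes, so their changes were not judged. In CPM of IL1B, both wt libraries at 1, 2 and 3 h lay below both in ethanol, with 11 and 5 reads in ethanol and 2 to 4 after dexamethasone. The same order held in Ctrl at 3 h, SoF at 1 h lay above its ethanol libraries, and the remaining groups overlapped. The NF-κB letters that CXCL8 shares with CXCL1 and CXCL2 accompanied a mean level of 247 CPM in the first, and of 0.00298 and 0.0387 CPM in the others.

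Values by library follow for the 7 tested genes, in CPM scaled as above, with replicate 1 before replicate 2 in each pair. LIF is taken first.
LIF in wt cells was at 185 and 238 CPM at 0 h, 153 and 248 CPM at 1 h, 232 and 525 CPM at 2 h, and 402 and 575 CPM at 3 h. LIF in SoF cells was at 304 and 259.6 CPM, then 187 and 174 CPM, 489 and 474 CPM, and 536 and 633 CPM at the same times. LIF in Ctrl cells was at 373 and 219.6 CPM, then 235 and 189.7 CPM, 566 and 516 CPM, and 596 and 629.9 CPM.
Both libraries of every line were above both of its own 0 h libraries at 3 h. At 2 h this held in SoF and Ctrl, while the first wt library at 2 h lay below one of the wt libraries in ethanol.
Changes below are log2 differences of group means fitted by edgeR's quasi-likelihood test to all 24 libraries, called at a Benjamini-Hochberg adjusted p under 0.05 over the 23651 genes tested. LIF was called higher at 3 h in each line, by 1.21 in wt (SE 0.29, adjusted p = 0.00823), 1.05 in SoF (SE 0.29, adjusted p = 0.0128) and 1.05 in Ctrl (SE 0.29, adjusted p = 0.0167).
In bulk RNA a change in the share of cells that express a gene and a change in RNA per cell cannot be told apart.

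CSF1, the growth factor that keeps macrophages and osteoclast precursors alive, was higher at 3 h in each line.
CSF1 in wt cells was at 15.4 and 13.7 CPM at 0 h, 14.9 and 10.9 CPM at 1 h, 21.2 and 37.2 CPM at 2 h, and 28.7 and 39.6 CPM at 3 h. CSF1 in SoF cells was at 16.5 and 10.4 CPM, then 11.4 and 8.49 CPM, 26.7 and 26.0 CPM, and 41.3 and 45.9 CPM at the same times. CSF1 in Ctrl cells was at 19.9 and 11.2 CPM, then 17.3 and 10.6 CPM, 29.8 and 29.0 CPM, and 35.9 and 39.5 CPM.
In each line both libraries at 2 h and both at 3 h lay above both in ethanol, and at 1 h the groups overlapped in every line. The 3 h change was 1.23 in wt (SE 0.28, adjusted p = 0.00553), 1.68 in SoF (SE 0.28, adjusted p = 0.000242) and 1.26 in Ctrl (SE 0.28, adjusted p = 0.00442) by edgeR's test. At 2 h, CSF1 was called in wt (1.00, adjusted p = 0.0406) and SoF (0.96, adjusted p = 0.0497) and missed the threshold in Ctrl (0.90, adjusted p = 0.0522), where 5 of 7 alternative fits called it, among them DESeq2 and the fit with a replicate block (adjusted p = 0.0244 and 0.0393), while leaving out the 0 h libraries numbered 2 gave 0.55 (adjusted p = 0.434).

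CCL2 had its lowest mean at 1 h and its highest at 3 h in each line.
CCL2 in wt cells was at 88.6 and 62.6 CPM at 0 h, 31.4 and 45.2 CPM at 1 h, 109 and 206 CPM at 2 h, and 138 and 226 CPM at 3 h. CCL2 in SoF cells was at 71.5 and 41.0 CPM, then 35.4 and 23.4 CPM, 99.5 and 106 CPM, and 81.4 and 144 CPM at the same times. CCL2 in Ctrl cells was at 87.9 and 40.2 CPM, then 54.4 and 31.4 CPM, 115 and 144 CPM, and 124 and 139 CPM.
At 2 and 3 h both libraries of each line stood above both of its 0 h libraries, and at 1 h both stood below in wt and SoF, with overlap in Ctrl. By line, no change was called at 1 h (-0.98, -0.94 and -0.59 in wt, SoF and Ctrl, adjusted p = 0.381, 0.646 and 1) or at 2 h (1.06, 0.86 and 1.01, adjusted p = 0.102, 0.186 and 0.0945). With no filter on low counts, CCL2 was called as falling at 1 h in wt and SoF. The 3 h change of 1.27 in wt was called by edgeR's quasi-likelihood test (SE 0.37, adjusted p = 0.0277) and missed the threshold in DESeq2, whereas the changes of 1.00 in SoF (SE 0.37, adjusted p = 0.0606) and 1.03 in Ctrl (SE 0.37, adjusted p = 0.0643) were not called.

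**Figure D2:**
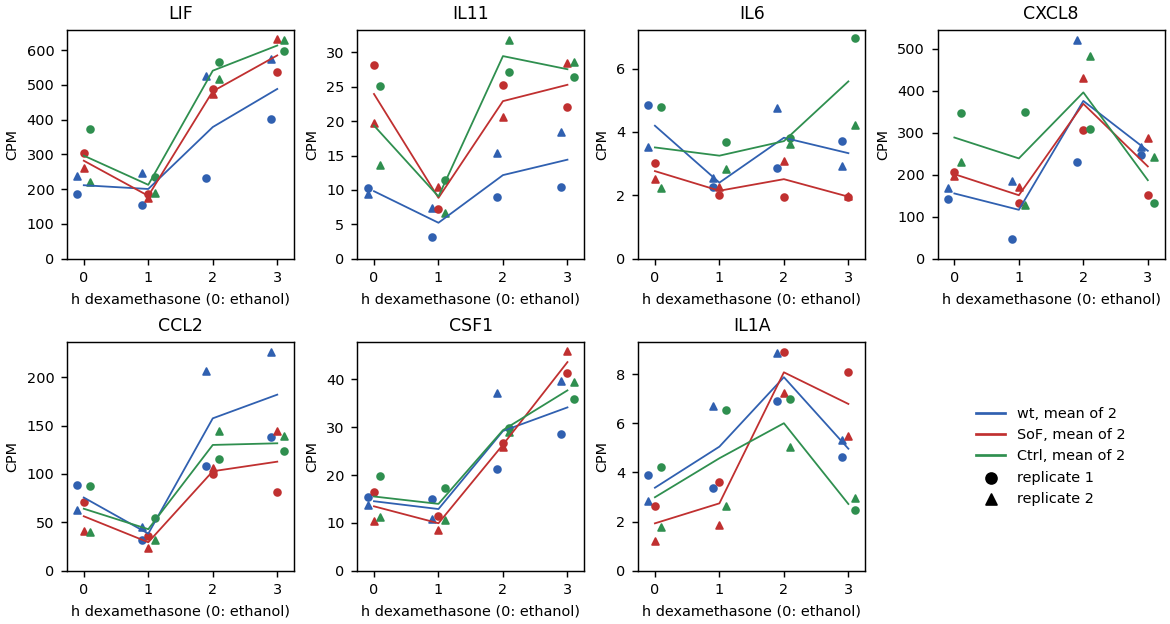
CPM of the 7 tested genes against hours of dexamethasone (0 is ethanol), with lines at the mean of 2 libraries, circles for replicate 1 and triangles for replicate 2, and colours for the wt, SoF and Ctrl lines. LIF, CCL2 and CSF1 are highest at 2 and 3 h, IL11 dips at 1 h, and CXCL8 and IL1A peak at 2 h in the means.

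IL11 was lowest at 1 h in the mean of each line.
IL11 in wt cells was at 10.2 and 9.39 CPM at 0 h, 3.12 and 7.34 CPM at 1 h, 8.96 and 15.3 CPM at 2 h, and 10.4 and 18.4 CPM at 3 h. IL11 in SoF cells was at 28.2 and 19.8 CPM, then 7.24 and 10.5 CPM, 25.2 and 20.6 CPM, and 22.1 and 28.5 CPM at the same times. IL11 in Ctrl cells was at 25.1 and 13.7 CPM, then 11.4 and 6.68 CPM, 27.1 and 31.8 CPM, and 26.5 and 28.6 CPM.
At 1 h both libraries of each line were below both of its 0 h libraries, without overlap in any of the 3 lines. By line, edgeR's test called none of these 1 h changes, which were -0.89 in wt, -1.44 in SoF and -1.12 in Ctrl on the log2 scale, with adjusted p = 0.419, 0.156 and 1. At 3 h the groups were apart in wt and Ctrl and overlapped in SoF, and no line was called (0.55, 0.07 and 0.49).

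CXCL8 was highest at 2 h in the mean of each line.
CXCL8 in wt cells was at 143 and 168 CPM at 0 h, 47.2 and 186 CPM at 1 h, 231 and 521 CPM at 2 h, and 247 and 267 CPM at 3 h. CXCL8 in SoF cells was at 207 and 196 CPM, then 132 and 170.2 CPM, 308 and 431 CPM, and 153 and 287 CPM at the same times. CXCL8 in Ctrl cells was at 346 and 232 CPM, then 350.2 and 128 CPM, 309 and 484 CPM, and 133 and 242 CPM.
The replicates were far apart in several groups, among them wt at 1 h and at 2 h and Ctrl at 1 h. At 2 h both libraries of wt and of SoF were above their 0 h libraries, while Ctrl overlapped. No line was called at any time by edgeR's quasi-likelihood test: the 2 h changes were 1.27 (SE 0.48, adjusted p = 0.145), 0.87 (SE 0.48, adjusted p = 0.321) and 0.46 (SE 0.48, adjusted p = 0.609) in wt, SoF and Ctrl. The 3 h changes were 0.73 (SE 0.48, adjusted p = 0.375), 0.13 (SE 0.48, adjusted p = 0.884) and -0.63 (SE 0.48, adjusted p = 0.416), and the last was called as a fall with no filter on low counts.

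IL1A had 12 to 110 reads per library.
IL1A in wt cells was at 3.91 and 2.85 CPM at 0 h, 3.38 and 6.72 CPM at 1 h, 6.91 and 8.85 CPM at 2 h, and 4.62 and 5.31 CPM at 3 h. IL1A in SoF cells was at 2.65 and 1.20 CPM, then 3.62 and 1.86 CPM, 8.91 and 7.24 CPM, and 8.07 and 5.50 CPM at the same times. IL1A in Ctrl cells was at 4.21 and 1.77 CPM, then 6.53 and 2.63 CPM, 6.97 and 5.04 CPM, and 2.46 and 2.97 CPM.
At 2 h both libraries of each line exceeded both of its 0 h libraries. At 3 h this held in wt and SoF, and Ctrl overlapped. SoF alone was called, by 2.02 at 2 h (SE 0.45, adjusted p = 0.00754) and 1.77 at 3 h (SE 0.45, adjusted p = 0.00807, edgeR's test). The difference from the other lines was tested for the 3 h response alone, and was not called except against Ctrl with no filter on low counts.

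IL6, the best known of the gp130 cytokines, had 19 to 82 reads per library.
IL6 in wt cells was at 4.85 and 3.54 CPM at 0 h, 2.25 and 2.55 CPM at 1 h, 2.87 and 4.77 CPM at 2 h, and 3.73 and 2.93 CPM at 3 h. IL6 in SoF cells was at 3.02 and 2.51 CPM, then 2.01 and 2.28 CPM, 1.94 and 3.08 CPM, and 1.94 and 1.98 CPM at the same times. IL6 in Ctrl cells was at 4.79 and 2.24 CPM, then 3.67 and 2.83 CPM, 3.80 and 3.62 CPM, and 6.96 and 4.23 CPM.
No line was called for IL6 at any time by edgeR's quasi-likelihood test. At 3 h both SoF libraries were below both SoF libraries in ethanol, with a log2 change of -0.51 (SE 0.38, adjusted p = 0.376), and Ctrl changed by 0.62 (SE 0.34, adjusted p = 0.232). Its opposite-strand neighbour IL6-AS1 was at 0.081 to 1.19 CPM, and its part in the IL6 values was not tested.

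By line and time, with the share of all 23651 tested genes called given beside each count, the 7 tested genes gave the following. At 1 h, 0 of 7 were called in wt (0.156% of all genes in either direction), 0 in SoF (0.165%) and 0 in Ctrl (0.0465%). At an unadjusted p under 0.05, 3, 3 and 1 of them were falling and none was rising, and DESeq2 called 1 in SoF (IL11, falling) and 0 in wt and Ctrl. At 2 h, 1 rose in wt (CSF1, 3.39% of all genes rising), 2 in SoF (CSF1 and IL1A, 4.2%) and 0 in Ctrl (5.58%), where 4 passed as rising at an unadjusted p under 0.05 and DESeq2 called 1. At 3 h, 3 rose in wt (CSF1, CCL2 and LIF, 6.6%), 3 in SoF (CSF1, IL1A and LIF, 11.2%) and 2 in Ctrl (CSF1 and LIF, 8.58%). As falling, 0 were called at 2 h (1.22%, 1.48% and 2.38% of all genes in wt, SoF and Ctrl) and 0 at 3 h (4.12%, 8.11% and 5.6%). Nearly all of these calls were lost in some fit that left out 1 library. Such a fit keeps 1 library in a group, so a lost call does not show that it rested on the library left out. Over these fits the 3 h change by line ran from 0.92 to 2.07 for CSF1 and from 0.71 to 1.50 for LIF. CSF1 in SoF at 3 h was the one call kept in each of the 4 fits that left out a library of its comparison. Without wt 3 h replicate 2 the wt count at 3 h was 0, and without either wt 0 h library it was 1. Without SoF 0 h replicate 2 the SoF count at 3 h was 1. The Ctrl count at 3 h was 0 without Ctrl 0 h replicate 2, 4 without Ctrl 0 h replicate 1, and 1 without either Ctrl library at 3 h. At 2 h the wt count was 0 without either wt 0 h library or wt 2 h replicate 2 and 3 without wt 2 h replicate 1. The SoF count at 2 h was 0 without SoF 0 h replicate 2 or SoF 2 h replicate 1 and 1 without SoF 2 h replicate 2, and the Ctrl count was 3 without Ctrl 0 h replicate 1.

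The 0 h libraries differed within lines in a way that touches each of these counts. In SoF and Ctrl, replicate 1 was above replicate 2 for all 7 genes, with ratios of CPM of 1.05 to 2.21 in SoF and 1.49 to 2.39 in Ctrl. In wt, LIF and CXCL8 were lower in replicate 1, at ratios of 0.779 and 0.854. The part of this difference in the results was not tested beyond leaving those libraries out.

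Changes were also averaged over the 3 lines. At 1 h, 6 of the 7 changes were negative, with a median of -0.40 against 0.01 over all genes. IL11 alone was called, falling by 1.15 (SE 0.21, adjusted p = 0.00356, edgeR's quasi-likelihood test), beside 0.55% of all genes falling and 0.731% rising. The call was lost when 0 h replicate 1 was left out in all 3 lines at once. CCL2 came near at -0.84 (SE 0.22, adjusted p = 0.0609). Leaving out any single library kept the IL11 call in 12 of 12 cases, while CCL2 also passed in 4 of 12, without 0 h replicate 2 of wt, SoF or Ctrl or without Ctrl 1 h replicate 1.

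At 2 h, 5 of the 7 rose in the mean of 3 lines (16.2% of all genes rising, 12.6% falling), with a median over the 7 of 0.87 against -0.03 over all genes. By size, IL1A rose by 1.38 (SE 0.25, adjusted p = 0.000232), CCL2 by 0.98 (SE 0.21, adjusted p = 0.00142), CSF1 by 0.95 (SE 0.16, adjusted p = 0.000142), CXCL8 by 0.87 (SE 0.28, adjusted p = 0.0222) and LIF by 0.83 (SE 0.17, adjusted p = 0.000681) in edgeR's test. The CXCL8 call held in 7 of 12 fits that each left out 1 library, and was lost without wt 0 h replicate 1, wt 2 h replicate 2, SoF 2 h replicate 2, Ctrl 0 h replicate 2 or Ctrl 2 h replicate 2. The other 4 calls held in 12 of 12. With 0 h replicate 2 left out in all 3 lines at once, CXCL8 and CCL2 lost theirs. IL11 changed by 0.27 and IL6 by -0.09, neither called.

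At 3 h, 4 of the 7 rose and 0 fell (20.9% of all genes rising, 19.3% falling), with a median of 0.70 against -0.03 over all genes. CSF1 rose by 1.39, or 2.62-fold (SE 0.16, adjusted p = 6.05e-07), LIF by 1.10, or 2.15-fold (SE 0.17, adjusted p = 1.69e-05), CCL2 by 1.10, or 2.14-fold (SE 0.21, adjusted p = 0.00028), and IL1A by 0.70, or 1.63-fold (SE 0.26, adjusted p = 0.0339), by edgeR's quasi-likelihood test. LIF, CCL2 and CSF1 kept their calls in all 12 fits without 1 library and IL1A in 6 of 12, being lost without 0 h replicate 2 of any line, wt 3 h replicate 2, SoF 3 h replicate 1 or Ctrl 3 h replicate 2, and with 0 h replicate 2 left out in all lines at once. IL11 (0.37, adjusted p = 0.131), CXCL8 (0.07, adjusted p = 0.853) and IL6 (-0.07, adjusted p = 0.798) were not called, and IL11 passed in 1 of 12, without Ctrl 0 h replicate 1.

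Set against 1 h, where all libraries had received dexamethasone for a known time, 4 of 7 were higher at 3 h and 0 lower (25.0% of all genes higher, 25.6% lower). These were CCL2 by 1.93 (SE 0.22, adjusted p = 3.4e-07), CSF1 by 1.66 (SE 0.17, adjusted p = 6.33e-08), IL11 by 1.52 (SE 0.21, adjusted p = 3.54e-06) and LIF by 1.50 (SE 0.17, adjusted p = 2.73e-07) in edgeR's test. All 4 held in each of 12 fits without 1 library, and CXCL8 joined them without wt 1 h replicate 2 or Ctrl 1 h replicate 1. This contrast uses no ethanol library, and shares its 3 h libraries with the one before it.

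**Figure D3:**
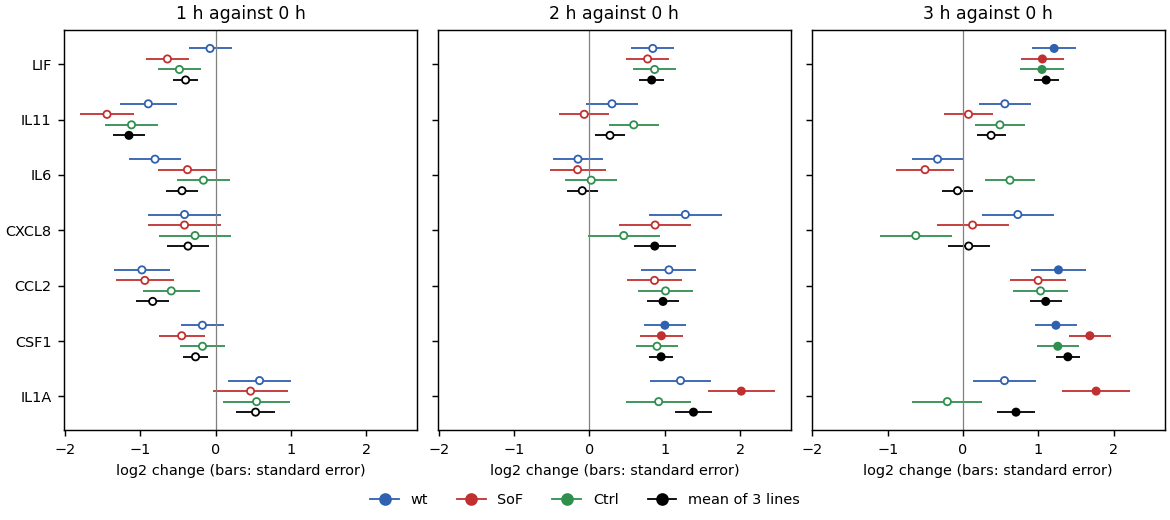
Log2 change against 0 h of the 7 tested genes at 1, 2 and 3 h in wt, SoF and Ctrl and in the mean of 3 lines, with bars of 1 standard error and filled points where edgeR called the change. The mean of the 3 lines is called for IL11 alone at 1 h, for 5 genes at 2 h and for CSF1, LIF, CCL2 and IL1A at 3 h.

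The lines were then compared over the 4 times. IL11 was higher in both mutant lines than in wt, by 0.94 in SoF (SE 0.18, adjusted p = 0.00102) and 1.00 in Ctrl (SE 0.18, adjusted p = 0.000686, edgeR's quasi-likelihood test), about 2-fold, while SoF and Ctrl differed by -0.06 (SE 0.17). The range over 8 libraries was 3.12 to 18.4 CPM in wt, median 9.82, 7.24 to 28.5 in SoF, median 21.4, and 6.68 to 31.8 in Ctrl, median 25.8. The ranges overlapped, and the mutant libraries at 1 h were at 6.68 to 11.4 CPM. The 2 differences from wt share the wt libraries, and each held in 16 of 16 fits without 1 library.

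IL6 was lower in SoF, with log2 differences of -0.53 from wt (SE 0.18, adjusted p = 0.0411) and -0.77 from Ctrl (SE 0.18, adjusted p = 0.00925) in edgeR's test, with medians of 2.14, 3.24 and 3.74 CPM in SoF, wt and Ctrl. The difference from wt was called in 5 of 16 fits without 1 library, and the difference from Ctrl in 15 of 16, lost without Ctrl 0 h replicate 1. CCL2 was also lower in SoF than in wt, at a log2 difference of -0.53 (SE 0.18, adjusted p = 0.0435), in 7 of 16 such fits, and the ranges of 23.4 to 144 and 31.4 to 226 CPM overlapped. In all, 3 of 7 differed between SoF and wt (22.1% of all genes in either direction), 1 between Ctrl and wt (13.2%) and 1 between SoF and Ctrl (8.96%). LIF, CXCL8, CSF1 and IL1A did not pass in any pair of lines. The SoF count against wt was 1 without wt 0 h replicate 1, wt 1 h replicate 2, SoF 0 h replicate 2, SoF 1 h replicate 2, SoF 2 h replicate 1 or SoF 3 h replicate 1. The Ctrl count against wt was 3 without wt 1 h replicate 2, where LIF and CXCL8 passed, and 2 without wt 2 h replicate 2 or Ctrl 0 h replicate 2, where LIF passed. For CSF1 the differences were small, at -0.07 (SE 0.14), 0.10 (SE 0.14) and -0.16 (SE 0.14) for SoF against wt, Ctrl against wt and SoF against Ctrl.

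**Figure D4:**
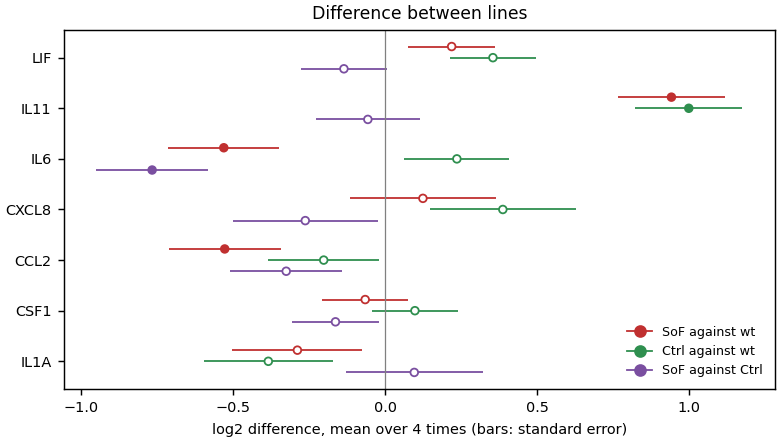
Log2 difference between lines in the mean over 4 times for the 7 tested genes, with bars of 1 standard error and filled points where edgeR called the difference. IL11 stands near 1 for both mutants against wt, and IL6 is below 0 for SoF against both other lines.

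Whether the response at 3 h differed between lines was tested as the difference of the log2 changes. None of the 7 was called for SoF against wt (0.0% of all genes), Ctrl against wt (0.0%) or SoF against Ctrl (0.0127%). At an unadjusted p under 0.05 the counts were 0, 0 and 2 (IL1A and IL6 in SoF against Ctrl), and DESeq2 called 0 in each. For IL1A the SoF response exceeded that of Ctrl by 1.97 (SE 0.65, adjusted p = 1, edgeR), a difference called with no filter on low counts, and for IL6 the difference was -1.13 (SE 0.51, adjusted p = 1). For CXCL8 the Ctrl response differed from that of wt by -1.35 (SE 0.68, adjusted p = 0.982), which was likewise called with no such filter. For LIF the differences were -0.16 (SE 0.40), -0.16 (SE 0.40) and 0.01 (SE 0.40). Standard errors of these differences ran from 0.39 to 0.68 over the 7 genes, and a miss of the threshold does not show that the lines responded alike.

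The 7 genes did not move as one block over the 24 libraries. As a description, with points that share line, time and 0 h libraries, Pearson's r of log2 CPM was 0.908 for LIF with CSF1, 0.895 for CCL2 with CSF1 and 0.842 for LIF with CCL2, but 0.434 for CXCL8 with CSF1 and -0.009 for IL6 with IL1A. The tested genes most like each member were, for LIF, TGIF2 (0.960), HBEGF (0.957) and IL4R (0.956), and for CSF1, IL27RA (0.969), TNFRSF1A (0.964) and IL4R (0.963). For CXCL8 they were TNF (0.938), TNFAIP3 (0.907) and PNO1 (0.903), for CCL2, MLX (0.954), LRRC42 (0.953) and IER5L (0.951), and for IL11, TRAF1 (0.943), MTG2 (0.904) and S1PR2 (0.896). IL1A was most like EDN2 (0.870), ZNF57 (0.863) and AREG (0.848), and for IL6 HRH2 came first at 0.779. IL6 had 19 to 82 and IL1A 12 to 110 reads per library. Counts this low can lower r, and their part in these values was not tested.

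Other genes of these pathways are given for the mean of 3 lines at 3 h, in the same fit and against the same background of 20.9% rising and 19.3% falling. Of 36 other cytokines and chemokines, 25 were tested, 5 rose and 7 fell. CLCF1, a partner ligand of the gp130 family, rose by 1.02 (SE 0.13, adjusted p = 2.08e-06) and CX3CL1 by 1.25 (SE 0.17, adjusted p = 4.47e-06). TNFSF15 fell by 2.02 (SE 0.17, adjusted p = 5.69e-09) and IL24 by 1.97 (SE 0.26, adjusted p = 2.85e-06). In this group changes of either sign stood side by side, with a median of -0.07.

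Of 14 receptors and antagonists of the members, 9 were tested, 6 rose and 0 fell by edgeR's quasi-likelihood test. At an unadjusted p under 0.05 the number changed was 8. IL1R1, through which IL1A signals, rose by 1.65 (SE 0.11, adjusted p = 2.07e-10), IL6R by 1.39 (SE 0.18, adjusted p = 2.07e-06) and IL6ST, the gene of gp130, by 0.71 (SE 0.09, adjusted p = 1.12e-06). Of 19 genes of the NF-κB pathway, all tested, 6 rose and 3 fell. BIRC3 rose by 3.13 (SE 0.28, adjusted p = 1.31e-08), TRAF2 by 0.81 (SE 0.09, adjusted p = 6.14e-07) and NFKB1 by 1.00 (SE 0.14, adjusted p = 6.44e-06), while NFKBIZ, an inducible cofactor of NF-κB, fell by 1.27 (SE 0.11, adjusted p = 6.36e-09). NFKBIE fell by 1.01 (SE 0.17, adjusted p = 6.25e-05) and NFKB2 by 0.55 (SE 0.15, adjusted p = 0.00571). BIRC3 is also among the glucocorticoid-responsive genes of the treatment check.

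Of 9 AP-1 genes, 2 rose and 7 fell, with a median of -1.02. BATF3 rose by 1.35 (SE 0.16, adjusted p = 7e-07) and FOSL2 by 0.75 (SE 0.14, adjusted p = 0.000264) in edgeR's test. FOS fell by 3.37 (SE 0.19, adjusted p = 2.02e-11), FOSB fell by 3.99 (SE 0.23, adjusted p = 2.02e-11), ATF3 by 3.57 (SE 0.16, adjusted p = 5.31e-13) and JUN by 1.02 (SE 0.11, adjusted p = 1.16e-07) in edgeR's test. Of 7 factors that govern decay of cytokine mRNAs, 3 rose and 1 fell, among them ZFP36L2, which binds AU-rich elements, by 1.07 (SE 0.15, adjusted p = 7.45e-06). The relation of any of these to the 10 genes was not tested.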

How the data were processed

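RNA labelled with 4sU was measured in 24 libraries, 2 in each of 12 groups. Per the labels and the study's methods, the authors removed duplicates by molecular identifiers (UMI-tools 1.1.2), trimmed reads with Trim Galore 0.6.6, aligned them to hg38 with STAR 2.7.3a and counted them over GENCODE v39 exons with featureCounts. The deposited values were raw counts per gene, and no column of another sample was present. Symbols came from GENCODE 44, matched for 99.7% of genes.

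The counts were tested with edgeR 4.0.16 (R 4.3.3) by quasi-likelihood over 12 group means, with TMM factors and a low-count filter (minimum count 10, total 15) that kept 23651 genes, and adjusted by Benjamini-Hochberg. The code was tested on simulated data. DESeq2 1.42.0, other size factors, no filter, a replicate block, single-line fits and leaving out libraries were alternatives. All 10 members were named, and from each other list at most the 4 genes with the smallest p in each direction. Lists and members were chosen with earlier results of these data known. The level of 1 marker gene is not reported here.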

Additional observations from a re-analysis of the deposited data

Results flagged for a closer look

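At 1 h both SoF libraries were above, and both wt libraries below, their own 0 h libraries in CPM of IL1B, a gene too low to judge. Mean CPM changed by 0.0585 in SoF and by -0.356 in wt, a difference of 0.414 CPM. The counts were 3 and 3 in SoF at 1 h against 4 and 2 in ethanol, and 3 and 2 in wt against 11 and 5, so that the SoF reads summed to the same number at both times and show no change. The difference was not tested.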

How the results depend on the processing

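Of 274 counts of called genes recomputed under an alternative, 212 stayed within 1.5 times the main count, and of 1918 log2 changes none that was called changed sign, while 73 lost and 77 gained a call. The median change of all genes was within 0.053 of 0 in each alternative. Counts in this paragraph are of the 7 genes. Testing every gene with a read gave 2, 3 and 1 at 1 h and 5, 5 and 3 at 2 h in wt, SoF and Ctrl, 4 in Ctrl at 3 h (CXCL8 falling), 4 in the mean of 3 lines at 1 h, 3 for Ctrl against wt, 3 for SoF against Ctrl, and 1 for the difference of the 3 h response in Ctrl minus wt (CXCL8) and in SoF minus Ctrl (IL1A). The cause was not tested. That Ctrl count was the 1 of 102 counts at 2 or 3 h in which a gene fell. DESeq2 gave 1 for SoF at 1 h, 1 for Ctrl at 2 h and 1 for SoF against wt, where IL6 and CCL2 missed the threshold. A fit to one line gave 0 for wt at 2 h, 1 for SoF at 1 h and 3 for Ctrl at 2 h, and other size factors gave 1 for SoF at 2 h and 2 for the mean at 1 h.

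Chosen after seeing the data, the 0 h libraries numbered 1, or those numbered 2, were left out in all 3 lines. Without those numbered 1 the counts were 2 for wt at 2 h, 4 for Ctrl at 2 h, 4 for Ctrl at 3 h and 0 for the mean at 1 h, so that the IL11 fall was lost (-0.88, against -1.41 to -0.99 without single libraries). Without those numbered 2 they were 0 for wt at 2 h, 1 for SoF at 1 h, 0 for SoF at 2 h, 1 for SoF at 3 h, 0 for Ctrl at 3 h, 4 for the mean at 1 h and 3 for the mean at 2 h. Leaving out 1 library gave 0 to 3 for wt at 2 h, 0 to 3 for wt at 3 h, 0 to 2 for SoF at 2 h, 1 to 4 for SoF at 3 h, 0 to 3 for Ctrl at 2 h, 0 to 4 for Ctrl at 3 h, 1 to 2 for the mean at 1 h, 1 to 3 for SoF against wt, 1 to 3 for Ctrl against wt and 0 to 1 for SoF against Ctrl. Where such a fit left 1 library in a group, the spread was taken from the other groups.

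The replicate block changed 1 count, to 1 for Ctrl at 2 h (CSF1). The numbers were not taken as pairing the libraries, since same-numbered libraries deviated together (r over 0.1) in 21 of 66 pairs of groups, with r from -0.221 to 0.568, though the 0 h groups did so at 0.394 to 0.568. Low read counts limited the results for IL1B, CXCL1 and CXCL2 most, and the part of depth in this was not tested.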

Other observations

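LIF-AS2, a non-coding gene on the opposite strand to LIF, was 1.87 higher in SoF than in wt over the 4 times on the log2 scale (SE 0.24, adjusted p = 2e-05, edgeR's quasi-likelihood test) and 1.97 higher than in Ctrl (SE 0.24, adjusted p = 1.11e-05), while LIF itself differed by 0.22 (SE 0.14) and -0.14 (SE 0.14). LIF-AS1, at the other end of LIF, fell by 0.79 in the mean of 3 lines at 3 h (SE 0.25, adjusted p = 0.0147), when LIF rose by 1.10. In the same mean at 1 h, LIF-AS1 had changed by -0.79 (SE 0.26, not called) and LIF by -0.40. From 1 to 3 h LIF-AS1 changed by -0.001, while LIF rose by 1.50. Over that step LIF-AS2 rose by 0.96 (SE 0.33, adjusted p = 0.0192, edgeR's test). LIF-AS2 had 2 to 11 reads per library in wt, 3 to 9 in Ctrl and 8 to 33 in SoF. LIF-AS1 had 6 to 30 reads per library. These counts are low, and none of the results for LIF-AS1 and LIF-AS2 was checked by leaving out libraries. Both genes were chosen after their values were seen, and what the differences mean for LIF was not tested.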
